A study of Mus musculus with 249 samples.

Results

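The collagens and a set of matrix genes of the brain's coverings were followed across the brains of F2 mice. They were chosen by name, as every probe whose only gene symbol is that of a collagen chain or is Fmod, Islr, Lum, Dcn, Igf2, Igfbp2, Aebp1 or Fn1. The rule found 46 probes for 41 genes among the 23388 probes of the array, 34 collagen chains and 7 other genes, and no probe carried Fn1 as its only symbol. The 41 genes are part of 11508 genes tested. All 46 probes had a value on every array, so no member was lost to a filter.

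Brain RNA of 249 animals was measured, each on 1 array with 2 colours. The animals are F2 offspring of C57BL/J6 and C3H/HeJ, both on ApoE null backgrounds, females and males, which received the high fat Western diet between weeks 8 and 24 of age. They form 1 group, so there is no control group, every animal shares the ApoE null state and the diet, and the labels give neither sex nor genotype for an animal. The animal's RNA carried Cy3 and a pool of all the samples' RNA carried Cy5. A value is taken here as the log10 ratio of animal to pool, on which 0.301 is a factor of 2 and a positive value is higher in the animal. The array of animal 144 is left out by the rule, which leaves 248 animals, and there was 1 array per animal with no replicate. Intensities are not analysed here, so the level of 1 gene cannot be set against that of another.

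Collagens are triple helices of chains that share a repeat in which glycine returns at a fixed spacing. Fibrillar collagens (types I, II, V, XI) form the cables of connective tissue, type IV forms the sheet of basement membranes around vessels, type VI forms beaded filaments and type VIII a hexagonal network, and types IX, XII, XIV and XIX sit on or between fibrils. The brain's own tissue holds few fibrils, and most of its fibrillar collagen lies in the meninges, the choroid plexus stroma and the walls of large vessels, where fibroblasts make it. Small leucine-rich proteoglycans (Fmod, Lum, Dcn) bind fibrils and set their width. Igf2, an insulin-like growth factor, is made in the adult rodent brain by the meninges and the choroid plexus, and Igfbp2 is one of the proteins that bind it.

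The bases before the start site are shown for 4 members that open the groups described below: Fmod and Aebp1, which varied with meningeal genes, Col8a1, which varied with choroid plexus genes, and Col1a2, whose probes disagreed. They are the 250 bases before the RefSeq start site (build GRCm38.p6), 5′ to 3′ on the gene's strand. Capitals mark the motifs searched on both strands. These are the CCAAT box, the TATA box, spelled as TATAAA, and the GC box, spelled as GGGCGG, which reads CCGCCC when it lies on the other strand.
Fmod, chr1:134037004-134037253, plus strand: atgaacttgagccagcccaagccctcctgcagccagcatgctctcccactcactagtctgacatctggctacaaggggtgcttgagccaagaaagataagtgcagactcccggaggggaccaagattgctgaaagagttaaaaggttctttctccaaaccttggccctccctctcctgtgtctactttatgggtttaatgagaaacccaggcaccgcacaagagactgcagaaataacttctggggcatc
Aebp1, chr11:5861616-5861865, plus strand: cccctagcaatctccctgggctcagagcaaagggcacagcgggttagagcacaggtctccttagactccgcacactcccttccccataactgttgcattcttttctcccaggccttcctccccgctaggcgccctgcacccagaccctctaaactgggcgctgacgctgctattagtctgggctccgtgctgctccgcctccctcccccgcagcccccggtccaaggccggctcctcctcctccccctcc
Col8a1, chr16:57754738-57754987, minus strand: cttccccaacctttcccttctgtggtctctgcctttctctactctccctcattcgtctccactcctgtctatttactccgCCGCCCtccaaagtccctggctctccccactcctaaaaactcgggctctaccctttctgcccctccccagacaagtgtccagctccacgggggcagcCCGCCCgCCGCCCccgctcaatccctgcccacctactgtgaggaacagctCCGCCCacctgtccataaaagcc
Col1a2, chr6:4505368-4505617, plus strand: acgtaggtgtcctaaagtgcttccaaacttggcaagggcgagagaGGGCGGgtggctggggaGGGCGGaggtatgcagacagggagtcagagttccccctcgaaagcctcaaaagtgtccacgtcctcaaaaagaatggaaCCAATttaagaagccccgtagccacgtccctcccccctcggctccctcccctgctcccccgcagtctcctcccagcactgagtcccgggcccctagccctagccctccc
The windows of Fmod and Aebp1 hold none of the 3 motifs. That of Col8a1 holds 4 copies of GGGCGG on the other strand, the nearest at 23 to 18 bases before the start. That of Col1a2 holds CCAAT at 109 to 105 bases before the start and GGGCGG at 205 to 200 and at 188 to 183. Promoters were matched for 32 of the 41 genes, with 39 windows. GGGCGG was present in 21 of these (53.8%), against 32.7% of 32851 windows of the same length. CCAAT was present in 12 (30.8%), against 33.8%, and TATAAA in 4 (10.3%), against 12.4%. Col4a1 and Col4a2 start on opposite strands of chromosome 8, and the first 22 bases of their transcripts overlap, so each window lies inside the other gene. A match is a description of letters only.

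Before the results, 3 arrays and 3 genes need naming. Animals 178, 213 and 336 had the largest SD over all probes, 0.258, 0.244 and 0.183, where the median array had 0.0764. They held the highest value of 10, 5 and 13 of the 46 member probes and the lowest of 6, 9 and 2. The shares over all probes are not given here, so these counts have no background. Col1a1, a chain of type I collagen, had 4 probes, 1 on the mouse transcript NM_007742 and 3 that the annotation gives to the rat transcript NM_053304. Over the 240 animals in which its values form 1 group, the mouse probe gave r = -0.435, 0.0323 and -0.251 with the other 3 (rho = -0.466, 0.00599 and -0.276, permutation p = 1e-05, 0.622 and 0.00012). Both Col1a2 probes, for the other chain of type I collagen, were unrelated (X58251 with BY782107 over 236 animals, r = 0.0136, rho = 0.0246, permutation p = 0.834 and 0.707). Those of Col23a1, a transmembrane collagen, were unrelated too (247 animals, r = 0.0874, rho = -0.0123, permutation p = 0.173 and 0.848). Of the 8 probe pairs within a gene 1 was positive and past the threshold, a pair of the rat Col1a1 probes at r = 0.797. Gene values average the probes of a gene, so those of Col1a1, Col1a2 and Col23a1 mix probes that do not agree. For Col1a2, on which several results turn, the values of each probe are given beside those of the gene.

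Most members spread more between animals than the median gene did. The SD of a member over the 248 animals ran from 0.0287 for Col4a3, a basement membrane chain, to 0.137 for Col26a1, with a median of 0.0606, where the median of all genes was 0.0546. Of the 41 members, 28 lay above that median. Col26a1, a short collagen related to the emilins, ran from -0.497 to 0.302 with a median of 0.0196, and its 5th and 95th percentiles lay 2.77-fold apart. The same span was 2.11-fold for Igfbp2, 2.03-fold for Col27a1, a fibrillar chain, 2.01-fold for Col6a3, a chain of type VI, and 1.94-fold for Col11a1, a chain of type XI. Igfbp2 ran from -0.591 to 0.175 with a median of -0.00415, and its lowest value was that of animal 336. Igf2 ran from -0.186 to 0.188 with a median of -0.00143, and Fmod from -0.311 to 0.159 with a median of -0.0200. Most probes stood near the pool, and 5 of 46 had a mean below -0.05: Col6a3 at -0.0785 ± 0.0964, Col13a1, a transmembrane collagen, at -0.0640 ± 0.0476, Col5a2 at -0.0636 ± 0.0751, the mouse Col1a1 probe at -0.0562 ± 0.170 and Col4a1 at -0.0540 ± 0.0613 (SD, n = 248). On the array of animal 144, left out here, these 5 probes stood at 0.836 to 1.164. The means are relative to the pool, and the part of the pool's content in them was not tested. How many of all probes had a mean below -0.05 is not given here.

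The mouse Col1a1 probe had the widest spread of the 46, from -0.499 to 0.848 with a median of -0.0739. A mixture of 2 components put 8 animals in an upper group with a mean of 0.522 and 240 in a lower group with a mean of -0.0746. Values of 17 of the 46 probes fell into such separate groups, often with 1 animal in the smaller one. Correlations between such genes are therefore given without the 12 arrays of largest SD or within the larger group. How many of all probes fell into such groups is not given here. In the spread plot each probe's bulk is narrow beside its extremes.

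**Figure D1:**
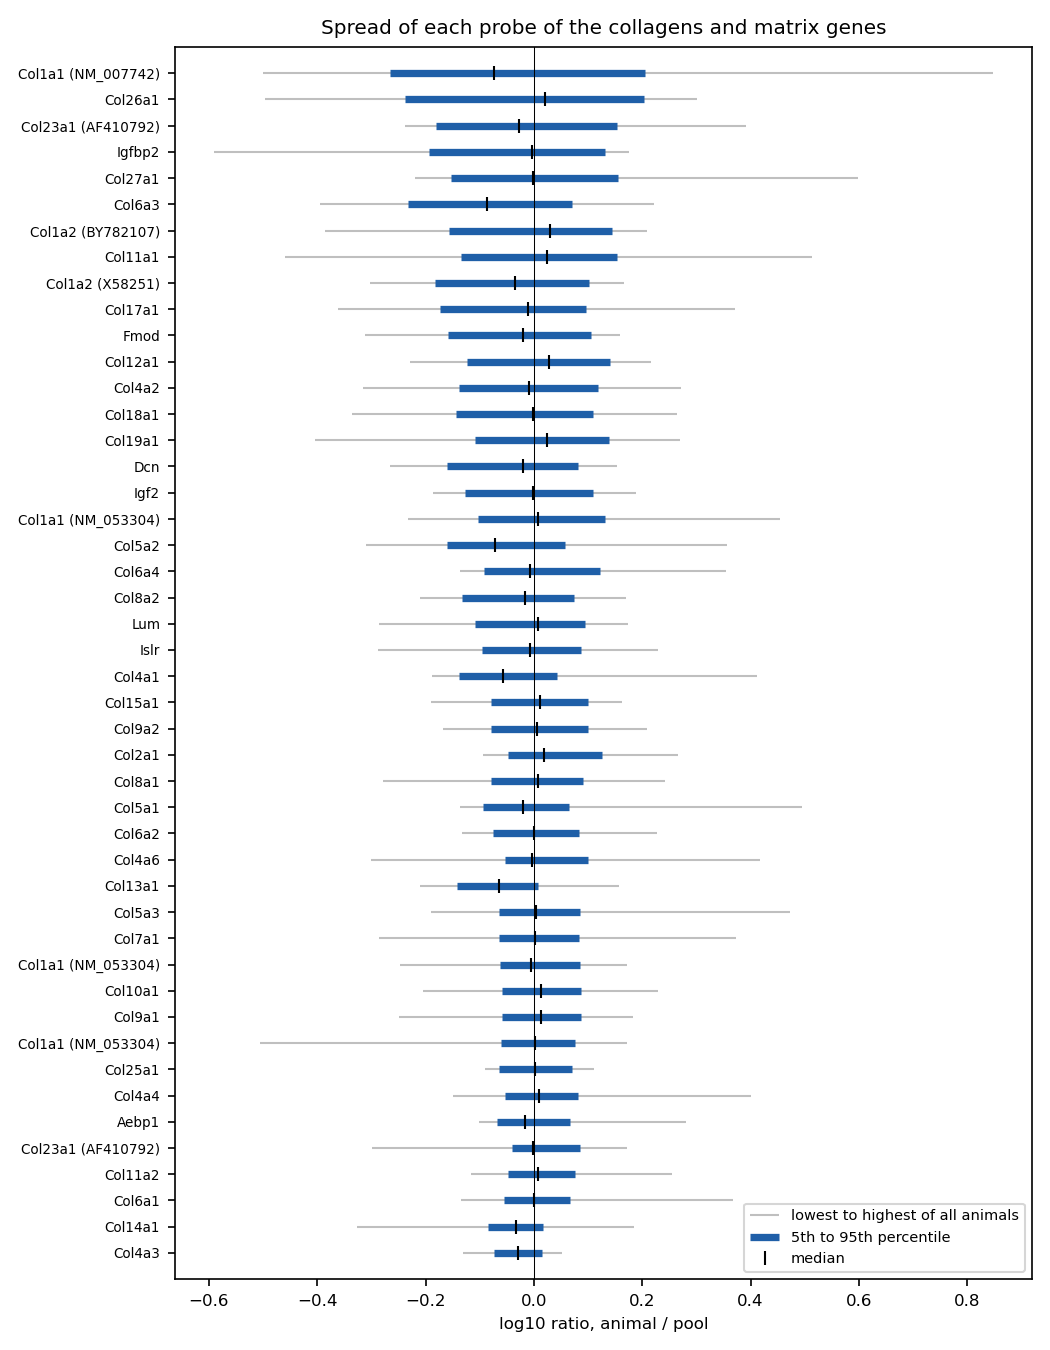
Spread of each of the 46 probes over 248 animals. The x axis is the log10 ratio of animal to pool; grey lines run from the lowest to the highest animal, blue bars from the 5th to the 95th percentile, and ticks mark the median. The mouse Col1a1 probe (NM_007742) has the widest bulk and reaches 0.848, and Col4a3 has the narrowest.

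Some chains that are wound into 1 molecule varied together and others did not. These are correlations without covariates, and most members correlated with a large share of all genes, so the rank of the partner chain among 11507 genes is given as well. Type IV collagen of most basement membranes joins Col4a1 and Col4a2. Col4a1 ran from -0.188 to 0.412 with a median of -0.0574, and Col4a2 from -0.316 to 0.272 with a median of -0.00969, and both were highest in animal 336. Without the 12 arrays of largest SD they correlated at r = 0.435 and rho = 0.442 (n = 236, permutation p = 1e-05 for each, the smallest the permutations can give, 2.14e-05 and 1.88e-05 adjusted over 15 pairs). Without the 2 animals farthest from the median r was 0.491, and in animals of lower and higher number it was 0.497 and 0.321. Col4a2 ranked 570 among the genes by absolute r with Col4a1. Col5a1 and Col5a2, of type V, gave r = 0.649 and rho = 0.593 over the same 236 animals (permutation p = 1e-05 for each, 0.606 without 2 animals, 0.529 and 0.695 by number, rank 44). Col6a1 and Col6a2, of type VI, gave 0.406 and rho = 0.444 (permutation p = 1e-05 for each, 0.436 without 2 animals, 0.388 and 0.428 by number, rank 257). Col4a3 and Col4a4, wound together in the kidney glomerulus, gave r = -0.160 and rho = -0.130 (permutation p = 0.0138 and 0.0472, 0.0173 and 0.0506 adjusted, rank 5284). Their r was -0.137 without 2 animals, and -0.259 and -0.0637 by number. Over 248 animals Col4a4 was not called with Col4a3 (limma adjusted p = 0.526), so no direction is read from this pair. Col1a1 had clustered values and is given without r: Col1a2 was not called with it over 248 animals (limma adjusted p = 0.592).

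Col6a2 and Col6a3 correlated at r = 0.337 and rho = 0.359 over 248 animals (permutation p = 1e-05 for each, 2.67e-05 adjusted over 8 pairs, 0.393 without 2 animals, 0.265 and 0.425 by number), and Col6a3 ranked 2076 for Col6a2, with which 58.1% of genes were called. Col8a1 and Col8a2, the type VIII chains, gave r = 0.340 and rho = 0.398 (permutation p = 1e-05 for each, 0.401 without 2 animals, 0.324 and 0.347 by number), and Col8a2 ranked 1545 for Col8a1 (58.2% called). Col9a1 and Col9a2, of type IX, gave r = 0.135 and rho = 0.207 (permutation p = 0.0339 and 0.00107, 0.0452 and 0.0021 adjusted, 0.184 without 2 animals, 0.0586 and 0.172 by number), but Col9a2 ranked 6700 for Col9a1 and was not called among all genes (57.2% called, limma adjusted p = 0.0566; 0.0318 as partial r beside 10 components, described below, adjusted p = 0.875). The type XI chains Col11a1 and Col11a2 did not hold a direction: r was -0.136 and rho 0.0599 over 248 animals (permutation p = 0.0337 and 0.346), and r was 0.0942 without the 12 arrays. Dcn and Lum, both proteoglycans, gave r = 0.264 and rho = 0.203 (permutation p = 6e-05 and 0.00131), with 0.374 in the lower numbers and -0.00761 in the higher, so the pooled value did not hold in both parts. The 3 proteoglycans differed in how they stood to the gene value of Col1a2. Fmod, which binds type I and II fibrils, gave r = 0.548 and rho = 0.562 (permutation p = 1e-05 for each, 0.521 without 2 animals, 0.453 and 0.582 by number). Dcn gave r = 0.0772 and rho = 0.142 (permutation p = 0.226 and 0.0251). Lum ran the other way, at r = -0.121 and rho = -0.167 (permutation p = 0.0576 and 0.00916), and at r = -0.214 without the 12 arrays (permutation p = 0.00101, 0.00138 adjusted). By probe, Fmod followed X58251 at r = 0.553 (limma adjusted p = 1.30e-18) and BY782107 at 0.186 (236 animals, adjusted p = 0.00930), and Dcn gave 0.323 with X58251 and -0.154 with BY782107. Lum gave -0.196 with X58251 (adjusted p = 0.00657) and -0.132 with BY782107 (adjusted p = 0.0729). Beside 10 components, described below, the direction of Lum did not hold. Its partial r was then 0.121 with the gene value of Col1a2 (limma adjusted p = 0.427). By probe it was 0.248 with X58251 (adjusted p = 0.0148) and -0.0928 with BY782107 (adjusted p = 0.512).

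Many genes outside the members moved with them too. The slope of each gene on a member was fitted over all 11508 genes with limma, per SD of that member, with Benjamini-Hochberg adjustment over all genes. Igf2 was associated with 4588 of 11507 genes (39.9% called; 23.4% higher and 16.5% lower), and with 24 of 40 other members, 20 higher and 4 lower. The largest slope was that of Fmod, 0.0537 ± 0.00424 in log10 ratio per SD of Igf2 (SE, adjusted p = 3.8e-25). Dcn, the proteoglycan decorin, followed at 0.0349 and Col18a1, whose end piece is endostatin, at 0.0344. Aebp1, a protein of fibroblast matrix, rose by 0.0213 and Lum, lumican, by 0.0118. Col19a1 and Col12a1, both associated with fibrils, ran opposite at -0.0277 and -0.0274. With the 10 components described below Col12a1 stood at -1.78e-05 (adjusted p = 0.998). Col19a1 was still called lower with them (-0.0146, adjusted p = 0.00258), but not also without the 12 arrays (-0.0101, adjusted p = 0.0616). In whole tissue a gene that is low because its cells are fewer and one that is low because each cell holds less RNA cannot be told apart.

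Col4a1 was associated with 5461 genes (47.5%; 27.7% higher and 19.8% lower) and with 26 of 40 members, 23 higher. Col5a2 rose most with it, 0.0503 per SD, Col5a1 by 0.0440 ± 0.00267 (adjusted p = 2.03e-38), Col4a2 by 0.0372 and Col6a1 by 0.0313. Col12a1, Lum and Igfbp2 ran opposite at -0.0259, -0.0139 and -0.0180. None of the 3 was called lower with the 10 components described below, where their slopes were 0.00382, 0.0118 and 0.0143 (adjusted p = 0.763, 0.234 and 0.0567), and that of Igfbp2 was 0.00432 without animals 178, 213 and 336. Col1a2 was associated with 7048 genes (61.2%; 29.6% higher, 31.6% lower) and with 18 of 40 members, 13 higher and 5 lower, a smaller share than among all genes. Igfbp2 led at 0.0668 ± 0.00448 per SD (adjusted p = 2.43e-33), then Fmod at 0.0469 ± 0.00455 (adjusted p = 2.33e-19). By probe, X58251 called 27 of 40 members (42.5% of genes called) and BY782107 19 (53.8%, over 236 animals). Igfbp2 followed BY782107 at r = 0.569 and X58251 at 0.207, and Igf2 followed X58251 at 0.535 and not BY782107 (-0.0333, adjusted p = 0.689). In a fit with both chains, 27 of 39 members had unequal slopes, where 61.9% of all genes did. Igfbp2 (0.0941 ± 0.00626 steeper per SD of Col1a2, adjusted p = 1.77e-33) and Fmod (0.0392) followed Col1a2 more closely, and Col5a1 (-0.0534), Col5a3 (-0.0458), Col5a2 (-0.0425) and Col6a1 (-0.0327) followed Col4a1. The contrast rests on the gene value of Col1a2 and was not fitted by probe. With 10 components it was no longer called for Igfbp2 (-0.00531, adjusted p = 0.698), Fmod (0.00479, 0.777), Col5a1 (-0.00773, 0.319) and Col6a1 (-0.00476, 0.537), and still was for Col5a2 (-0.0200, 0.0176) and Col5a3 (-0.0228, 0.0172). Col4a2 had the smallest adjusted p there and followed Col4a1 (-0.0389, 2.08e-14). Col19a1 (0.0243, 0.0136) and Col14a1 (0.0170, 0.0348) followed Col1a2. Without components Col19a1 was not called and Col14a1 ran the other way (-0.00986). Without animals 178, 213 and 336 the members called numbered 21 for Col1a2 (60.0% of genes called), 23 for Col4a1 (41.9%), 24 for Igf2 (43.8%) and 20 for unequal slopes (50.9%).

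The genes nearest to these members, outside the members, were largely not matrix genes. By absolute r over 248 animals the 10 nearest to Col1a2 were Ndufs4 at -0.747, Rpl22 at -0.737, Elavl4, Prkcsh, Tbc1d10b, Jph4, Psma6, Adra2c, Rbis and Crmp1. These are for the gene value: Ndufs4 gave -0.395 with X58251, to which Glg1 was nearest at 0.667, and -0.522 with BY782107, to which Fzr1 was nearest at 0.708. The 5 nearest to Col4a1 were Wdr90 at 0.749, Eps15l1, Abcc5, Agrn, a basement membrane proteoglycan, at 0.728, and Rgl2. The 5 nearest to Igf2 were Aoc3, an amine oxidase of smooth muscle and endothelium, at 0.680, Efemp1, a fibulin, at 0.639, Prg4, Champ1 and Thbd.

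To set aside what the arrays had in common, the first 10 principal components of 11254 genes outside the members and lists were added as covariates, a choice made after seeing the data. They held 61.2% of those genes' variance. Calls then fell from 7048 to 165 genes for Col1a2 (1.43%; 0.930% higher), from 5461 to 1298 for Col4a1 (11.3%; 5.77% higher) and from 4588 to 1400 for Igf2 (12.2%; 7.04% higher, 5.13% lower). The members called numbered 5 of 40, all higher, for Col1a2, 10, of which 9 higher, for Col4a1, and 15, of which 14 higher, for Igf2. The median partial r of the other members with Igf2 was 0.143, and that of all genes -0.00474. With 20 components the members called numbered 4 for Col1a2 (1.15% of genes called), 3 for Col4a1 (1.89%) and 13 for Igf2 (7.03%). Below, partial r is the correlation that remains beside the 10 components.

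Beside the components, the members' pairs leaned positive. Over the 820 pairs of members the mean partial r was 0.0526, where it was 0.00162 over all pairs of genes. It was above 0.3 in 52 pairs and below -0.3 in 1. The share of all pairs of genes past these limits was not counted, so these counts have no background. In the map of member pairs, 10 genes stand as a block: Col6a2, Aebp1, Fmod, Igf2, Dcn, Lum, Col8a1, Col8a2, Col13a1 and Igfbp2, named after their values were seen. Their 45 pairs ran from 0.0832 to 0.616 with a median of 0.335. Col4a1 with Col4a2 and Col17a1 with Col18a1 (0.512) stand beside it as separate pairs.

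**Figure D2:**
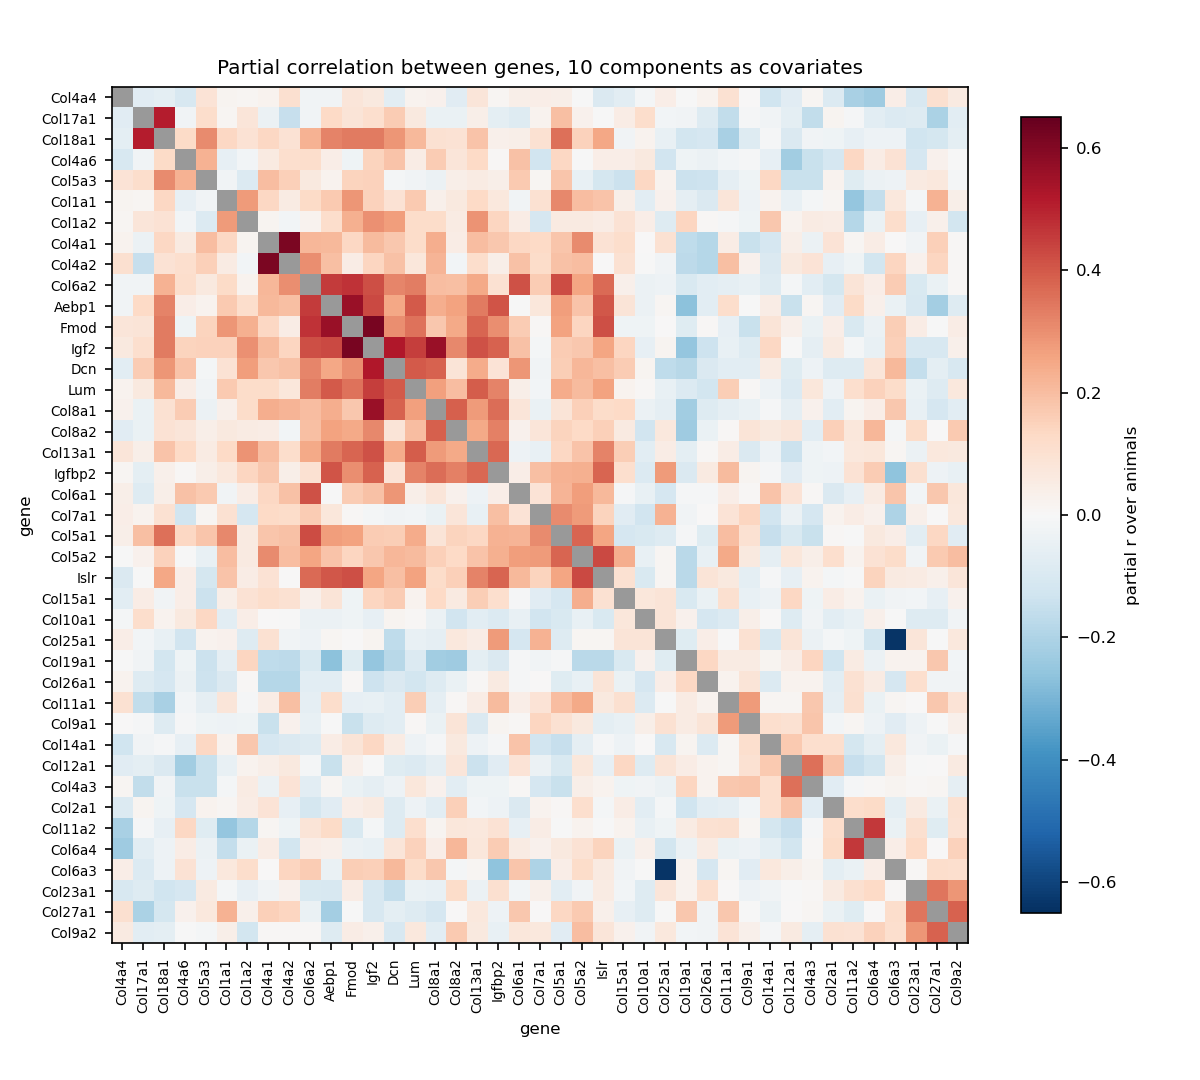
Partial correlation between the 41 genes over 248 animals with 10 principal components as covariates, ordered by average linkage. Red is positive, blue negative and grey the gene with itself. The block from Col6a2 to Igfbp2 and the pair Col4a1 with Col4a2 (0.610) are red, and Col6a3 with Col25a1 (-0.639) is the deepest blue.

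Several matrix genes of that block rose with Igf2. Fmod did at a partial r of 0.616 (slope 0.0406 ± 0.00337 per SD, limma adjusted p = 1.06e-22), Dcn at 0.519, Lum at 0.450, Aebp1 at 0.429 and Col6a2 at 0.417. Outside the block Col18a1 (0.339) and Islr (0.259) rose too. Aebp1 and Fmod gave 0.562 with each other, Col6a2 and Fmod 0.469, and Dcn and Lum 0.399 (adjusted p = 6.3e-08). Markers of meningeal fibroblasts, 18 of them measured, moved with these genes. With Fmod 14 of 18 were higher and none lower (6.20% of all genes higher), with a median partial r of 0.417, and the nearest of all genes were Slc22a6, an organic anion transporter of the meninges, at 0.702, Omd, another leucine-rich proteoglycan, at 0.661 and Crabp2, a retinoic acid binding protein, at 0.645.

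With Aebp1, over the 240 animals of its larger group, 15 of the 18 were higher (9.18% of genes), with Col6a2 13 (6.27%), with Igf2 12 (7.04%), with Dcn 12 (6.28%) and with Lum 12 (4.04%). None of the 18 was lower with any of these 5 genes. Foxc2, a transcription factor of meningeal mesenchyme, was the nearest gene to Col6a2 at 0.567. Efemp1 was nearest to Lum at 0.514, Aox3, an aldehyde oxidase, to Dcn at 0.521, and Pcolce, which speeds the trimming of fibrillar procollagen, to Igf2 at 0.638. Of 28 other matrix proteins measured, 16 were higher with Igf2 and none lower, led by Efemp1 (0.568), Ogn (0.496), Lama1 (0.453) and Omd (0.452). Of 25 genes of collagen folding and cross-linking, 7 were higher with Igf2 and none lower: Pcolce and Loxl1 led, then Lox (0.377) and Crtap (0.368). Of 26 collagen receptors and enzymes of degradation 4 were higher, Mmp2 (0.412), Fap (0.307), Ctsk (0.213) and Itga11 (0.194).

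Other cell types' markers moved with the same members. Of 12 mural cell markers 8 were higher with Fmod, 8 with Igf2, 9 with Aebp1 and 7 with Col6a2, and of 9 choroid plexus markers 7 were higher with Igf2 and 7 with Lum. The macrophage markers Mrc1 (0.495) and Cd163 (0.332) were the 2 of 10 higher with Igf2. No red cell marker of 5 measured was called with Igf2, Col1a2 or Col4a1. The part of cell numbers, of vessels and of dissection in these patterns was not tested. With 5 or 20 components or without the 12 arrays, the meningeal count stayed at 11 to 14 for Fmod, 12 to 14 for Igf2 and 9 to 12 for Dcn and Lum, and ran from 7 to 14 for Col6a2.

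**Figure D3:**
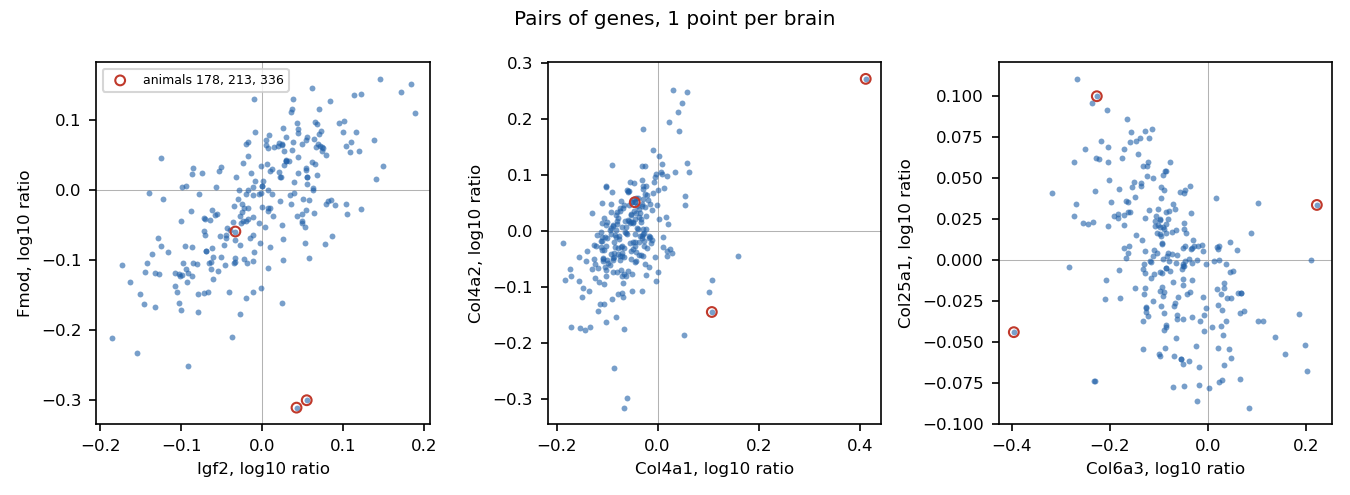
Log10 ratios of 3 pairs of genes, 1 point per animal (248), with animals 178, 213 and 336 ringed. Fmod climbs with Igf2, with 2 of the 3 ringed animals below the rest, and Col4a2 climbs with Col4a1 (r = 0.435 without 12 arrays); animal 336 lies alone at the top right of the second panel at 0.412. Col25a1 falls as Col6a3 climbs.

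The main basement membrane chains moved with each other and with vessel markers. Col4a2 was the nearest of all genes to Col4a1 and Col4a1 to Col4a2, at a partial r of 0.610 (slope 0.0375 ± 0.00318 per SD of Col4a1, limma adjusted p = 1.5e-21), and at 0.611 without the 12 arrays. Of 14 endothelial markers 7 were higher with Col4a2 (4.65% of genes higher) and none lower, and of 12 mural markers 6 were. With Col4a1, over 247 animals (5.51% of genes higher), 6 mural markers were higher, of which Acta2 (0.324), Tagln (0.275), Myh11 (0.272) and Abcc9 (0.271) had the smallest p over 248 animals; with 20 components none of the 12 was called. The endothelial receptor Kdr (0.312) and the junction protein Cldn5 (0.235) were higher with Col4a1 as well. How many of the endothelial markers were called with Col4a1, in either direction, is not given here. Of the folding genes Plod1, a lysyl hydroxylase, stood at 0.315, Pcolce at 0.286, Crtap at 0.265 and Lox at 0.237, and the count for that list is not given either. Outside the members the nearest genes to Col4a1 were Dbp and Nr1d2, both of the circadian clock's output and loop, at -0.436 and -0.434. The hour of collection is not in the labels, and its part was not tested.

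Of the other chains of basement membranes, Col4a3, Col4a4, Col15a1 and Col18a1 were not called with Col4a1 beside the components. Counts of vessel markers are not given here for them. Col4a3 and Col4a4 gave a partial r of 0.0127 (adjusted p = 0.928, 9.83% of genes called). Col4a6 was called with neither Col4a1 nor Igf2 beside the components. Col15a1, a vessel and muscle basement membrane collagen, had 169 genes called (1.47%), among the 20 nearest Eif2s3y and Kdm5d, both on chromosome Y, at -0.292 and -0.284. Without components the endothelial marker Esam was among the genes nearest to Col15a1, at r = 0.492 (limma adjusted p = 1.3e-12). Of the type V chains, Col5a2 (0.308), Col5a3 (0.199) and Col5a1 (0.181) were higher with Col4a1, but without the 12 arrays Col5a3 and Col5a1 were not called (adjusted p = 0.0774 and 0.105). Col5a2 was the sixth nearest gene to Col5a1 at 0.381 (adjusted p = 2.19e-06, 11.3% of genes called). Col6a2 was the nearest gene to Col6a1 at 0.412 (adjusted p = 3.86e-07, 4.80% called), while Col6a3 was not called with Col6a1 (0.182, adjusted p = 0.0712) or with Col6a2 (0.166, adjusted p = 0.0670, and 0.0404 without the 12 arrays).

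The type VIII chains moved with markers of the choroid plexus, the epithelium that secretes cerebrospinal fluid. Col8a1 ran from -0.279 to 0.241 with a median of 0.00707. Of 9 choroid plexus markers 8 were higher with it and none lower (8.43% of genes higher), with a median partial r of 0.511, and its nearest genes were Ttr, the thyroxine carrier of that epithelium, at 0.699, Abca4 at 0.656 and Kcnj13, a potassium channel, at 0.651. With Col8a2 6 of 9 were higher (6.52%) and with Igfbp2, over 234 animals, 6 of 9 (3.22%). Col8a1 and Col8a2 gave 0.386 (adjusted p = 1.62e-07, 14.9% of genes called with Col8a1), and Igf2 and Igfbp2 gave 0.385 (adjusted p = 1.36e-07). Igf2 and Col8a1 gave 0.559 (adjusted p = 8.01e-18), a pair that was not called without components (r = 0.107, adjusted p = 0.167). The genes nearest to Igfbp2 were Serpinf1 at 0.444, Nupr1 at 0.419 and Vtn, vitronectin, at 0.418. Over the settings with 5 or 20 components or without the 12 arrays, the choroid count was 7 to 8 for Col8a1. Of 7 olfactory bulb markers 5 were lower with Col8a1 (6.52% of genes lower), and 8 of 12 mural markers were higher, 1 with 20 components; the part of how much choroid plexus was taken along was not tested.

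**Figure D4:**
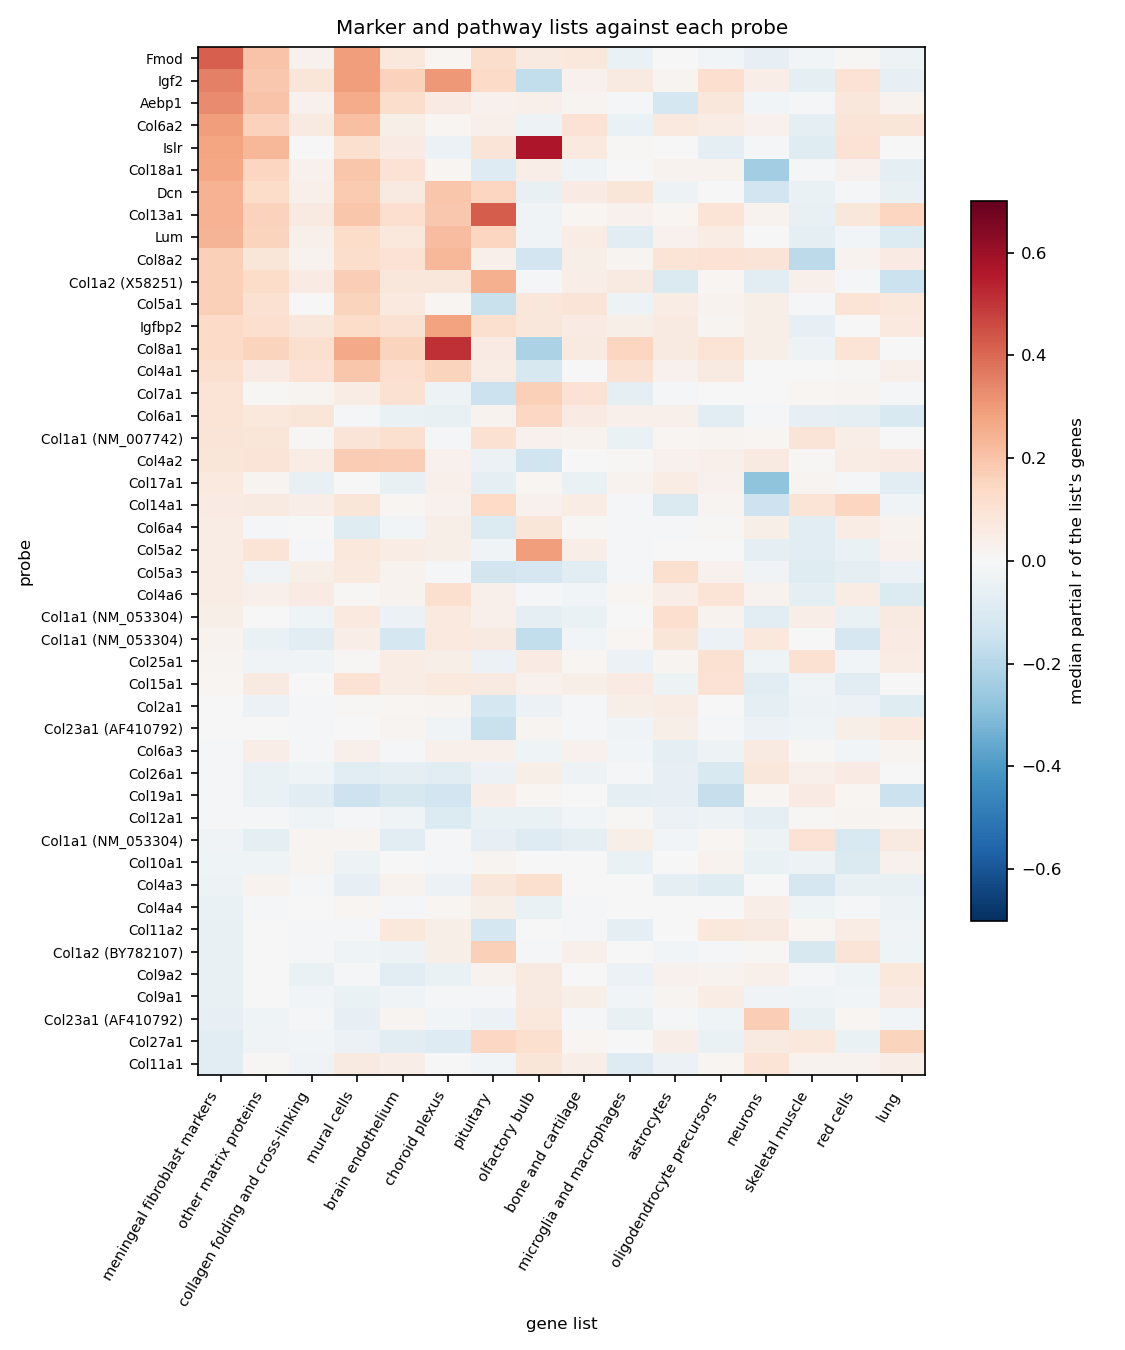
Median partial r of the measured genes of 16 lists (x axis) with each of the 46 probes (y axis), 10 components as covariates, over 248 animals or the larger group of a probe whose values fell into 2. Probes are ordered by the meningeal list. Fmod (0.417) leads the meningeal column, Col8a1 (0.511) the choroid plexus column, Islr (0.564) the olfactory bulb column and Col13a1 (0.423) the pituitary column.

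Some members moved with markers of a brain region or of a neighbouring tissue. Islr, a leucine-rich protein of mesenchymal cells, ran from -0.288 to 0.229 with a median of -0.00752. With it 6 of 7 olfactory bulb markers were higher (9.57% of genes higher), with a median partial r of 0.564, beside 13 of 18 meningeal markers. Its nearest gene was Lgr5 at 0.660, then Fbln2, a fibulin, at 0.637, and the bulb genes Tbx21, S100a5 and Doc2g were among the 20 nearest. With Col5a2, over 242 animals, 4 of the 7 bulb markers were higher (2.09%), and Col5a2 and Islr gave 0.427 with each other.

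Col13a1, a transmembrane collagen, ran from -0.210 to 0.157 with a median of -0.0638. All 6 pituitary markers measured were higher with it (3.58% of genes higher), with a median partial r of 0.423, and the pituitary hormone genes Cga (0.425) and Tshb (0.424) were among its 20 nearest. It also rose with Igf2 (0.416, adjusted p = 5.42e-09), and 11 of the 18 meningeal markers were higher with it. With the Col1a2 probe X58251 5 of the 6 pituitary markers were higher (1.12% of genes) and 8 of the 18 meningeal ones, 1 and 2 with 20 components. The pituitary, olfactory bulb and meninges lie at the surface of the brain, and the part of dissection was not tested.

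The mouse probe of Col1a1, over the 240 animals of its larger group, had 98 genes called (0.852%). Its nearest genes were Bglap and Bglap2, the osteocalcins of bone, at 0.548 and 0.502, then Hemgn, a gene of blood-forming cells, at 0.360 and Acp5, the phosphatase of osteoclasts, at 0.329. The neutrophil genes Camp and Mpo were among the 20 nearest, and of the members Fmod was. The list of bone and cartilage markers had 12 genes measured, and its median partial r with this probe was 0.0244. The type I chains as gene values gave a partial r of 0.275 (adjusted p = 0.00424, 2.94% of genes called with Col1a1), and Igf2 (0.297), Col13a1 (0.293), Dcn (0.273) and Fmod (0.232) were the other members called with Col1a2. By Col1a2 probe these rest on X58251, with which all 5 were higher (Igf2 0.356, Col1a1 0.319, Dcn 0.318, Fmod 0.314, Col13a1 0.283). With BY782107 none of the 5 was called (0.00651 to 0.142), and 2 other members were higher and 2 lower (2.16% and 2.55% of genes). The Col1a1 side of these values is the gene value, which averages the mouse probe with those given to the rat transcript. Single Col1a1 probes are not given against Col1a2 here, so which of them carries the type I pair is not shown.

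Col18a1 and Col17a1 moved with each other and shared near genes. Col17a1, a transmembrane collagen of epithelial anchors, ran from -0.362 to 0.372 with a median of -0.0111, and Col18a1 from -0.336 to 0.265 with a median of -0.00221; both were highest in animal 336. The nearest genes to Col18a1 were Homer3 at 0.672, Il20rb at 0.671 and Grin2c, a glutamate receptor subunit of granule cells, at 0.640, and En2, Ppp1r17, Cbln1, Gabra6 and Calb1, all genes known from the cerebellum, were among the 20. The nearest to Col17a1 was Ebf1 at 0.585, and Pax6, Grin2c and Slc1a6 were among its 20. These genes were picked out after their values were seen, and no list of cerebellar genes was counted or tested. Of 5 neuron markers 4 were lower with each of the 2 collagens (10.9% and 9.95% of genes lower), and with 20 components 1 and none. With Col18a1 13 of 18 meningeal markers were higher (11.1% of genes higher), 2 with 20 components. Which brain regions were in the tissue was not tested.

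Several members moved with genes of 1 chromosome. For each probe the 20 genes of largest absolute partial r were placed on the chromosomes of GRCm38.p6, which placed 10893 genes. Col9a2, a chain of type IX on chromosome 4, ran from -0.168 to 0.210 with a median of 0.00552. Its 20 nearest held 19 genes of chromosome 4, on which 5.75% of the placed genes lie, led by Cited4 at -0.813 and Cap1 at 0.764, so neighbours stood on both sides. Col26a1, on chromosome 5, had 16 (6.05% of genes), led by Mafk at 0.826. Col6a3, on chromosome 1, had 15 (5.70%), and 6 with 5 components, led by Hes6 at 0.799 and Gpc1 at 0.797. Col27a1, on chromosome 4, had 11, and 2 with 5 components. Without components these 4 counts were 6, 9, 2 and 3.

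Other probes named a chromosome that is not the gene's. Of the Col1a2 probes, whose gene lies on chromosome 6, X58251 had 6 of 20 on chromosome 6 (5.66% of genes), Pdk4, Pot1a and Aass among them, and 12 with 20 components. BY782107, over 236 animals, had none on chromosome 6 and 15 on chromosome 4, led by Cptp at -0.683 and B3galt6 at 0.657. Col25a1, a transmembrane collagen found in amyloid plaques and encoded on chromosome 3, ran from -0.0903 to 0.111 with a median of 0.00144. It had none on chromosome 3 and 12 on chromosome 1, Hes6, Scly and Gpc1 among them, and its nearest gene was Atp11a at 0.802. These are also the genes nearest to Col6a3, and Col25a1 and Col6a3 gave the only member pair below -0.3, at -0.639. One Col23a1 probe had 8 on chromosome 4 and none on chromosome 11, where the gene lies, with Akap11 nearest at 0.907, and Col14a1, a fibril-associated chain on chromosome 15, had 8 on chromosome 9, 4 without the 12 arrays and 5 with 20 components. What the probes of these 4 genes bind was not tested.

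**Figure D5:**
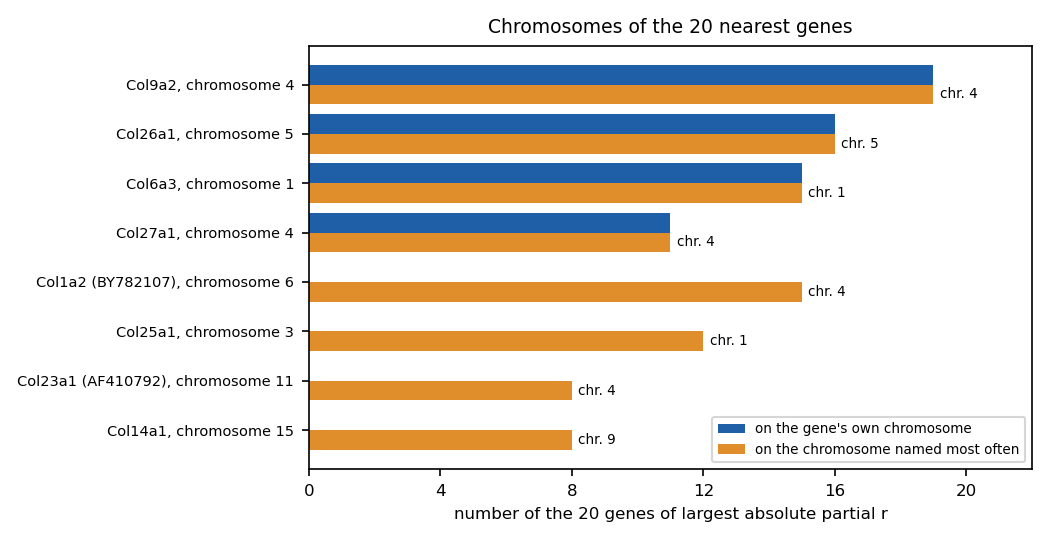
Number of the 20 nearest genes of a probe (by absolute partial r, 10 components) that lie on the gene's own chromosome (blue) and on the chromosome named most often (orange), for the 8 probes with 8 or more on 1 chromosome. Col9a2 has 19 on its own chromosome 4, and the Col1a2 probe BY782107 has 15 on chromosome 4 and none on its own.

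The remaining members differed widely in how many genes moved with them. Beside the components, Col10a1, the collagen of growth plate cartilage, had 14 genes called (0.122%), Col9a1 70 (0.608%), Col14a1 82 (0.713%), Col2a1, the cartilage fibril, 93 (0.808%), Col4a4 205 (1.78%) and Col7a1, the anchoring fibril of skin, 325 (2.82%). Col11a1 had 1510 (13.1%), led by Wsb1 at 0.563, and 6 members were higher with it (6.13% of genes) and 1 lower (7.00%). Col12a1 and Col4a3 gave 0.359 with each other, and both had Ubxn10, Golgb1 and Pfkp among their 20 nearest. Col11a2 and Col6a4, an unusual type VI chain, gave 0.458 and shared Rtp2, Synpo and Inpp4a. Col19a1 had 7 members lower and none higher (9.51% of genes lower), Igf2 among them at -0.251. Col27a1 gave 0.385 with Col9a2 and 0.348 with the gene value of Col23a1, whose probes do not agree. Chromosome 4, on which Col27a1 and Col9a2 lie, was named most often for both and for a Col23a1 probe, as given above. The pair of Col9a2 with Col23a1 is not given here.

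The animal number, the only label that differs between animals, was related to some members. Over 248 animals 1925 of 11508 genes were associated with it (16.7%; 6.46% higher and 10.3% lower in later numbers), and 14 of 41 members were, 2 higher and 12 lower. Col11a1 fell by 0.0272 ± 0.00553 per 100 numbers (SE, limma adjusted p = 9.26e-05), Fmod by 0.0186, Col5a2 by 0.0174 and Islr by 0.0152, while Dcn rose by 0.0201 ± 0.00425 (adjusted p = 1.59e-04) and Lum by 0.0124. Without animals 178, 213 and 336 the members called were 20 (20.8% of genes called), 2 higher (8.36%) and 18 lower (12.4%). Beside the components 783 genes were called (6.80%; 3.61% higher and 3.19% lower) and 10 members: Dcn rose by 0.0142, Igf2 by 0.0111, Col4a1 by 0.00995, Col5a3, Col4a2 and Col6a1 rose too, and Col11a1 fell by 0.0162, with Col9a1, Col1a1 and Col4a3. For 3 of these the direction turned with the components. Col4a2 was called lower without them (-0.0147, adjusted p = 0.0210) and higher with them (0.00622, adjusted p = 0.0262). Col4a1 and Col6a1 stood at -0.00867 and -0.00517 without them, not called, and were called lower without animals 178, 213 and 336 (-0.0114 and -0.00707, adjusted p = 0.00286 and 0.0123). Without the 12 arrays, Igf2, Col5a3 and Col6a1 were not called beside the components (adjusted p = 0.0934, 0.235 and 0.0641). Fmod, Col5a2, Islr and Lum were then not called. What the number stands for, an order of birth, of collection or of hybridisation, is not in the labels and was not tested.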

How the data were processed

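For each probe of an array the authors deposited a log10 ratio of the animal's RNA, in Cy3 per the labels, over the pool's, in Cy5. The base and direction were inferred from the values, which end at exactly -2 and 2, and from the dyes in the labels. These limits alone do not show the direction. Array medians run from -0.00627 to 0.0250, so the arrays appear to have been centred before deposit. How they corrected background and dyes is not given in the sources used here. Probes with 1 symbol (13645 of 23388; 48 had several and 9695 none) measured on at least 90% of arrays were averaged to a gene value, 11508 genes in all. The number of arrays limits the precision. The animal number was read from the source name, from which the title of 1 sample differs.

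Slopes were fitted with limma 3.58.1 in R 4.3.3 (lmFit, eBayes, two-sided) per SD of a gene or per 100 animal numbers, Benjamini-Hochberg adjusted over all genes, with a threshold of 0.05, after a test on simulated data. Correlations have 100000 permutations of animals, two-sided. Clusters were called where a 2-component normal mixture gained over 10 in BIC with means at least 3 SD apart (scikit-learn 1.9.0). Added after seeing the data were the principal components of genes outside the members and lists (5, 10 or 20), the fit of each probe in turn, over the larger cluster where there were 2, and leaving out animals 178, 213 and 336. The other settings are named in the closing section. With 1 group of animals, p-values measure association between animals, not an effect of a treatment.

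The rule for named genes was every member, the 10 other genes of largest absolute r with Col1a2, 5 each with Col4a1 and Igf2, and up to 4 genes of a list with the smallest p; nearest genes of single probes were looked up after their values were seen. The members, the rule and the lists were chosen with earlier results of these data known. Symbols, chromosomes and start sites come from RefSeq on GRCm38.p6, which is not a build of the array.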

Additional observations from a re-analysis of the deposited data

Results flagged for a closer look

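Animal 144, which the rule leaves out, stood apart from all 248 other arrays. Its value lay above all of them on 20 of the 46 member probes and below all of them on 9. The share of all probes so placed is not given here, so these counts have no background. Col13a1 stood at a log10 ratio of 1.164, Col6a3 at 1.154, Col5a2 at 1.067 and Col14a1 at 1.028. Col11a1 stood at -1.273, Col19a1 at -1.184, Col26a1 at -0.7811 and Igf2 at -0.7202. All 7 lung markers measured were above the highest of the other arrays on it: Sftpc, a surfactant protein, stood at 1.241 against -1.125, and Slc34a2 at 1.443 against -0.1132. On the other arrays the medians of these 7 genes lay below the pool, from -1.453 for Sftpb to -0.8097 for Ager. Over the 46 probes the values of animal 144 correlated with the mean of the other arrays at r = -0.696 (46 probes of 1 array, which are not independent). Its source was not tested.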

How the results depend on the processing

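These settings planned ahead kept the counts of genes and members called within 1.5 times: centring on array medians, ranks as normal scores, values at -2 and 2 set to missing, probes complete on every array, the array's SD or the number as a covariate, and leaving out animal 208 or the 12 arrays of largest SD. Including animal 144 was planned too and is not among them. With it 4 of the 37 member slopes compared below changed sign. Principal components as covariates, added after seeing the data, moved them; the fits with them test the same genes. With 5, 10 and 20 components, and with 10 without the 12 arrays, Col1a2 called 1368, 165, 132 and 242 genes and 7, 5, 4 and 5 members. Unequal slopes were called for 4273, 1068, 112 and 1083 genes and 17, 5, 2 and 6 members. With 10, 20 and 10 without the 12 arrays, Col4a1 called 1298, 218 and 1093 genes and 10, 3 and 5 members, Igf2 1400, 809 and 1280 genes and 15, 13 and 13 members, and the animal number 783, 669 and 630 genes. The number called 8, 5 and 5 members with 5 and 20 components and with 10 without the 12 arrays.

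Of 37 member slopes compared, some changed sign. With 5 components Col8a2 on Col1a2 became -0.00263 and Col23a1 on Col1a2 0.00607. Col12a1 on Col4a1 became 0.00382 with 10 components, and Col12a1 on Igf2 0.00379 with 20 and 0.00258 with 10 without the 12 arrays. Lum on Col4a1 became 0.0118 and 0.00719 with 10 and 20 components, 0.00694 with 10 without the 12 arrays, and 0.00644 with animal 144 included. With animal 144, Lum on Igf2 became -0.00209, Col13a1 on Igf2 -0.0247 and Col19a1 on Igf2 0.0171. Igfbp2 on Col4a1 became 0.0360 with normal scores, a slope in units of those scores and not of log10 ratio. In log10 ratio it became 0.00445 without the 12 arrays, 0.00432 without animals 178, 213 and 336, and 0.0143, 0.0106 and 0.0115 with 10, 20 and 10 components without the 12 arrays. In those 3 last settings the slope per 100 numbers of Col4a1 became 0.00995, 0.00901 and 0.00946, of Col4a2 0.00622, 0.00689 and 0.00716 and of Col6a1 0.00529, 0.00419 and 0.00479. That of Col5a3, 0.00130 and not called, became -0.00102 without the 12 arrays, -2.56e-04 with the number split at its median and -0.00104 without the 3 animals. The Col1a2 contrast of Igfbp2 became -0.00531 with 10 components and -0.00360 also without the 12 arrays. The cause was not tested. No paired analysis was possible because the animals form 1 group and no labels pair them.

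Limits: 1 array per animal gives no technical error, bulk tissue mixes cell types, signal over background is unknown, and components of the arrays can hold biology as well as technique.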
